A study of Mus musculus with 4 samples.

Results

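The genes described here encode the CD94/NKG2 and NKG2D receptors and their relative KLRE1: Klrc1, Klrc2, Klrc3, Klrd1, Klrk1 and Klre1. Every probe set of the array whose platform gene symbol is, or includes, 1 of these 6 genes was taken, which gave 8 of the 45101 probe sets: 7 for a member gene of its own and 1 shared by Klrc3 and Klrc2. The arrays were 4 Affymetrix mouse expression arrays, hybridised with biotin-labelled cRNA from CD8 T cells of the spleen of wild-type B6 mice, with no treatment. In the Ly49+ group (2 arrays) the cells were sorted as CD44+CD122+Ly49+, which the labels name CD8+ Treg, and in the Ly49- group (2 arrays) as CD44+CD122+Ly49-, which they name conventional memory type. The question was how the expression programs of these sorted populations differ. The labels do not say whether the replicates came from separate mice or how many mice were pooled, so the p-values rest on a spread between arrays that may be technical alone. In RNA from sorted cells, more cells that express a gene and more RNA per cell cannot be told apart.

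CD94, encoded by Klrd1, is a lectin-like chain that pairs with an NKG2 chain to form a receptor for Qa-1, a non-classical MHC class I molecule. The NKG2A chain (Klrc1) carries inhibitory motifs in its tail and signals through phosphatases, whereas the NKG2C (Klrc2) and NKG2E (Klrc3) chains signal through the adaptor DAP12. NKG2D (Klrk1) forms a homodimer without CD94, uses the adaptors DAP10 and, in the mouse, DAP12, and binds stress-induced ligands. KLRE1, also called NKG2I, pairs with KLRI1 or KLRI2. The receptors are best known from natural killer (NK) cells, and memory CD8 T cells also carry several of them.

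In the RefSeq annotation (GRCm38.p6, used for gene order) the 6 genes lie next to each other on chromosome 6, in the order Klre1, Klrd1, Klrk1, Klrc3, Klrc2, Klrc1, with Klri1 and Klri2 beyond Klrc1. The 250 bases before the start of 5 of them are shown because they let a reader compare the upstream sequences of genes that rose. They also show how far Klrc2 and Klrc3 are copies of each other, which bears on the probe set they share. No window was available for Klrd1, the member not called higher, so the windows hold no gene of the cluster that did not rise. Where the table lists several starts for a gene, the start farthest upstream was used. They come from RefSeq, build GRCm38.p6, and are written 5′ to 3′ on the strand of the gene. Capitals mark ACCACA or its reverse complement TGTGGT, the core bound by Runt-domain (Runx) factors.
Klre1, chr6:129577963-129578212, plus strand: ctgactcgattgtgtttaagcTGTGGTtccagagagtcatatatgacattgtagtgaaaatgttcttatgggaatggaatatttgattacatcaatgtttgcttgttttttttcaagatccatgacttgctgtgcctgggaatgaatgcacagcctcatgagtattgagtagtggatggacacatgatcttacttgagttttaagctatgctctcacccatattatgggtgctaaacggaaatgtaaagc
Klrk1, chr6:129623865-129624114, minus strand: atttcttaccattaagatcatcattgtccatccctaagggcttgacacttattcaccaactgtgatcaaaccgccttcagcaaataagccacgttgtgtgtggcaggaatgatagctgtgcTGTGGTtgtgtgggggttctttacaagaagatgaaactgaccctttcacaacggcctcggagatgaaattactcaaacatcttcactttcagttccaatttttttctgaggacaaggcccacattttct
Klrc3, chr6:129643289-129643538, minus strand: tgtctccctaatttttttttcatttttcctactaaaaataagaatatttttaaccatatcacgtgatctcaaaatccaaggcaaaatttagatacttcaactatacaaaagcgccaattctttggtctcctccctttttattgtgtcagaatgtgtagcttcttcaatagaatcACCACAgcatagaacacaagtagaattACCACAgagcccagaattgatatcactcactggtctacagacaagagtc
Klrc2, chr6:129660597-129660846, minus strand: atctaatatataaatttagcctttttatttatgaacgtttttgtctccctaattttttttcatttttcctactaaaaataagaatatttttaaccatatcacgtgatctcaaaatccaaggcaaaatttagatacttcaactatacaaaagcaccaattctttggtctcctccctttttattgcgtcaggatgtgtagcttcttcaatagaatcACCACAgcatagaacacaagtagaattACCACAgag
Klrc1, chr6:129678974-129679223, minus strand: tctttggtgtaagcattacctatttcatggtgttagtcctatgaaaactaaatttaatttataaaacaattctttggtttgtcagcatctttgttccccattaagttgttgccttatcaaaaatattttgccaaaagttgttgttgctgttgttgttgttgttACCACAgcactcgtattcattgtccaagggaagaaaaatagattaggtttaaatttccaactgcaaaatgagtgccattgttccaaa

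The Klrc2 and Klrc3 windows were nearly the same sequence. In a global alignment, 206 of 209 aligned bases (98.6%) were identical, with 1 internal gap position, and the longest identical run was 100 bases. In the other 9 pairs of windows, the Klrc1 window against these included, the longest identical run was 7 to 12 bases. The ACCACA core was present in all 5 windows, at 2 places in each of the Klrc2 and Klrc3 windows, inside the stretch these share. It was present in 14% (4614) of 32851 mouse windows of the same length. Of the other cores searched on both strands, TGGGAA, bound by Ikaros-family factors such as Helios, was in the Klre1 window alone, at 2 places (21.6% of all windows), and GGTGTG (T-box, 16.3%) and AGGAAG (Ets, 29.5%) were in none of the 5. These motifs were chosen after the sequences had been seen, and a match is a description of letters, not of binding.

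Array medians of the deposited intensity lay between 188.5 and 190.4 and the pairwise Pearson correlation across probe sets between 0.996 and 0.998. Of the bacterial spike-in controls, 9 probe sets of the older design (BioB, BioC, BioD and Cre) read 1.42- to 4.60-fold lower on Ly49- replicate 1 than on the mean of the other 3 arrays, while the 9 newer probe sets for the same spikes read 0.940- to 1.04-fold. Results without that array are therefore given beside those with it. The 15 older-design probe sets for Bacillus subtilis transcripts reached 70.3, and a reading at or below this value is called low. The labelled cell type was checked against its markers. The 7 CD8 T-cell markers (Cd3d, Cd3e, Cd3g, Cd8a, Cd8b1, Cd2 and Cd5), each at its brightest probe set, were above the low reading on every array. None passed the test described next (0 also at an unadjusted p under 0.05). A dimmer Cd8a probe set, 1444078_at, gave a log2 fold change of -0.17 (limma unadjusted p = 0.0051, adjusted 0.15). The CD4 T-cell markers Cd4 and Zbtb7b were read at 106 to 148 and Cd40lg below the low reading.

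In Ly49+ cells 7 of the 8 probe sets were higher, the exception being Klrd1, which did not pass the test, and none was lower. The test was limma on log2(intensity + 16), fitted over all 45037 probe sets other than controls, with a Benjamini-Hochberg adjusted p under 0.05 as the threshold. Fold differences are given on that scale, so for dim probe sets they are smaller than the ratio of the mean intensities. Over all probe sets, 0.766% were called higher and 0.429% lower, and 13.3% (6010) had an unadjusted p under 0.05. On all 8 member probe sets both Ly49+ arrays lay above both Ly49- arrays, as did 15.7% of all probe sets (the reverse held for 29.1%). The median log2 fold change of the 8 was 1.15, against -0.03 over all probe sets. Ordered by log2 fold change, Klre1 was 6th of the 45037 probe sets, the shared Klrc3 and Klrc2 probe set 9th, Klrc2 21st, the Klrc1 probe sets 43rd and 120th, Klrc3 63rd, Klrk1 238th and Klrd1 5528th.

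**Figure D1:**
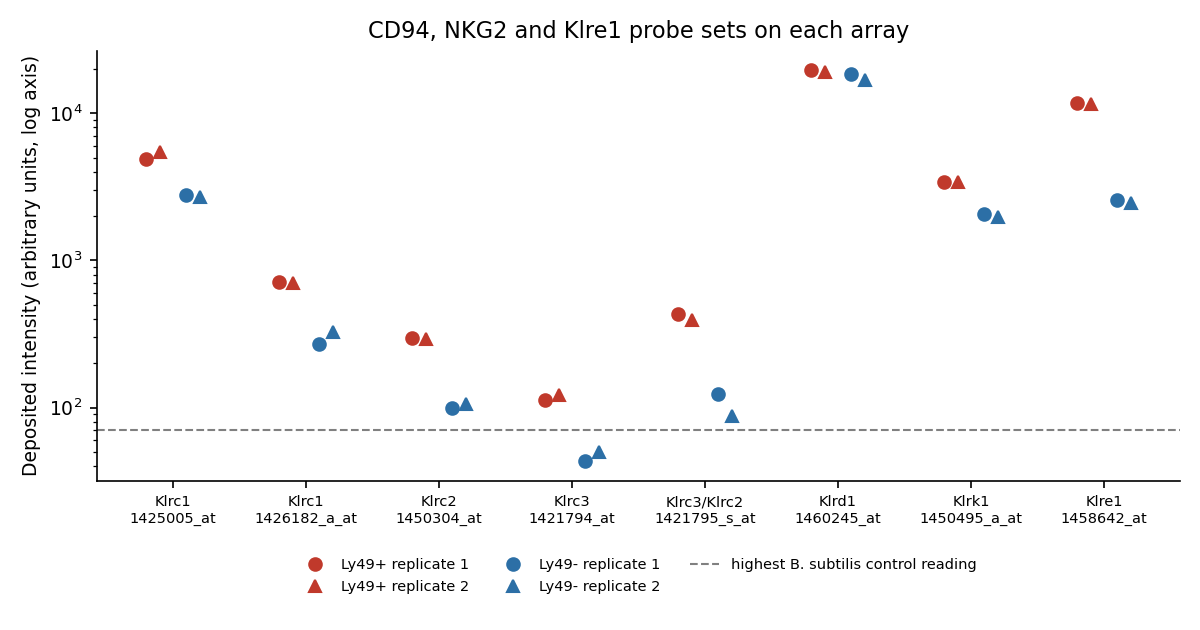
Deposited intensity (arbitrary units, log axis) of the 8 probe sets on each of the 4 arrays, with Ly49+ arrays in red and Ly49- arrays in blue; the dashed line is the highest Bacillus subtilis control reading, 70.3. The red points lie above the blue ones in every column, by the widest margin for Klre1 and by little for Klrd1, and the blue Klrc3 points lie under the line.

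Among the NKG2 chains, the inhibitory Klrc1 was read by a pair of probe sets. Probe set 1425005_at read 4900 and 5471 on the Ly49+ arrays (replicates 1 and 2) and 2786 and 2694 on the Ly49- arrays. Every Ly49+ value was at least 1.76 times every Ly49- value, and the Ly49+ replicates lay farther apart than the Ly49- ones. The level was 1.88-fold higher in Ly49+ cells, at 5186 ± 404 against 2740 ± 65.0 (mean ± SD, n = 2 per group), a log2 fold change of 0.91 ± 0.07 SE with a limma adjusted p of 0.0035. Probe set 1426182_a_at, whose suffix marks transcripts of 1 gene, read 719 and 701 against 271 and 326. Here the groups were also apart, and the Ly49- replicates were the more scattered. It was 2.32-fold higher (log2 fold change 1.21 ± 0.12 SE, limma adjusted p = 0.0093). The 95% intervals of these changes, 0.76 to 1.07 and 0.94 to 1.49 on the log2 scale, overlapped.

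The activating NKG2 chain Klrc2 rose too, from a low base. Its own probe set, 1450304_at, read 295 and 294 on the Ly49+ arrays and 99.2 and 106 on the Ly49- arrays. The Ly49+ replicates agreed to within 1 unit of intensity, and the Ly49- values lay not far above the low reading of 70.3. The level was 2.61-fold higher (294 ± 0.578 against 103 ± 5.08, n = 2 per group), with a log2 fold change of 1.39 ± 0.11 SE and a limma adjusted p of 0.0046. The probe set that Klrc2 shares with Klrc3, 1421795_s_at, read 434 and 393 against 124 and 87.3. On the same scale it was 3.57-fold higher (log2 fold change 1.84 ± 0.16 SE, limma adjusted p = 0.0070), and its reading cannot be divided between these genes.

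Klrc3, the NKG2E chain, was at a low reading in Ly49- cells. Its probe set, 1421794_at, read 112 and 122 on the Ly49+ arrays and 43.2 and 49.7 on the Ly49- arrays, both below 70.3. The gene was called higher (limma adjusted p = 0.010). Set against the low reading in place of its own Ly49- values, the difference was at least 1.54-fold on the log2(intensity + 16) scale. With pseudocounts of 64 and 1 its log2 fold change was 0.71 and 1.32, on either side of 1.09 with 16, so its size depends on that setting.

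Klrd1, the CD94 chain that the NKG2A, NKG2C and NKG2E chains need to reach the cell surface, was read at nearly the same level in both groups. Its probe set gave 19573 and 19011 on the Ly49+ arrays and 18458 and 16690 on the Ly49- arrays. The groups did not overlap, but the lower Ly49+ value exceeded the higher Ly49- value by a factor of only 1.03, and the Ly49- replicates differed by more than that. The log2 fold change was 0.14 ± 0.05 SE (limma adjusted p = 0.31, unadjusted 0.030), with a 95% interval of 1.01- to 1.19-fold. On the log2 scale that interval ended at 0.25, below the smallest change of any other member, 0.76 for Klrk1.

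Klrk1, which encodes NKG2D, rose moderately. It read 3428 and 3436 against 2081 and 1972. The Ly49+ replicates were nearly equal and each Ly49+ value was at least 1.65 times each Ly49- value. The level was 1.69-fold higher (3432 ± 5.40 against 2026 ± 77.0, n = 2 per group), with a log2 fold change of 0.76 ± 0.06 SE and a limma adjusted p of 0.0046.

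Klre1, the partner of KLRI1 and KLRI2, had the largest change of the 8 probe sets. It read 11709 and 11632 on the Ly49+ arrays and 2568 and 2448 on the Ly49- arrays. The replicates of either group lay close together, and every Ly49+ value was at least 4.53 times every Ly49- value. The 95% interval of its 4.63-fold difference ran from 4.28 to 5.01 (log2 fold change 2.21 ± 0.05 SE, limma adjusted p = 1.2e-05).

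**Figure D2:**
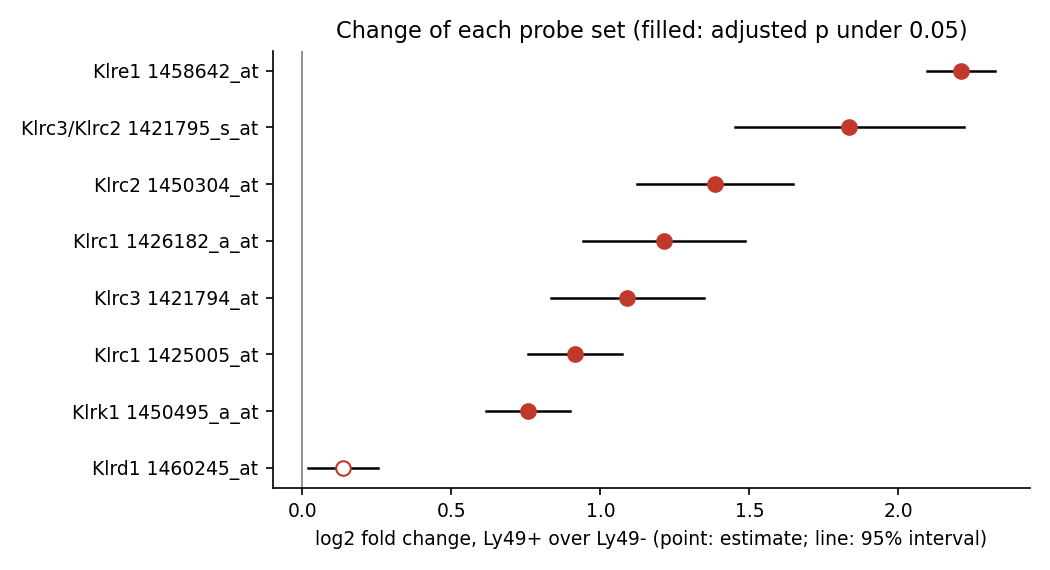
Log2 fold change of each probe set in Ly49+ over Ly49- cells, with the 95% interval of the limma fit as a line and filled points for an adjusted p under 0.05. Klre1 stands at 2.21, the Klrc genes between 0.91 and 1.84, Klrk1 at 0.76 and Klrd1, the open point, at 0.14.

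Ordered by change, neighbouring members mostly overlapped. The interval of Klre1 (2.10 to 2.33) overlapped that of the shared Klrc3 and Klrc2 probe set (1.45 to 2.22). The Klrc2 interval (1.12 to 1.65) overlapped those of Klrc3 (0.83 to 1.35) and of the 1426182_a_at probe set of Klrc1, and the Klrk1 interval (0.62 to 0.90) overlapped that of the other Klrc1 probe set. The Klrd1 interval (0.02 to 0.25) overlapped none. To set each chain against CD94 on the same array, the log2 value of Klrd1 was subtracted from that of each other member and the mean of the Ly49- arrays set to 0. For Klrc1 (1425005_at) the Ly49+ arrays then stood at 0.68 and 0.88 and the Ly49- arrays at -0.05 and 0.05. Klrc2 stood at 1.23 and 1.27 against -0.12 and 0.12, and Klre1 at 2.06 and 2.09 against -0.04 and 0.04. Relative to Klrd1 all 7 other probe sets were higher on both Ly49+ arrays than on either Ly49- array, by 0.62 (Klrk1) to 2.08 (Klre1) on average. An exact two-sided permutation test of each difference gave p = 0.333, the smallest that 2 against 2 arrays allow, so these differences could not pass a threshold. They restate the fold changes relative to Klrd1 and do not measure receptors at the surface.

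With 1 array left out at a time, Klre1 passed in all 4 fits and no other member did. Its adjusted p was 5.7e-04 and 5.4e-04 with Ly49+ replicates 1 and 2 removed in turn, and 2.8e-04 and 4.6e-04 with Ly49- replicates 1 and 2 removed. Of all probe sets, 0.0511% (23) were called higher in all 4 fits. Without Ly49- replicate 1, the array with low spike-in readings, 4 of the 8 probe sets passed. These were Klre1, the shared Klrc3 and Klrc2 probe set (0.028), Klrk1 (0.040) and Klrc1 1425005_at (0.044), while Klrc2 (0.062), Klrc1 1426182_a_at (0.065), Klrc3 (0.10) and Klrd1 (0.13) did not. Without Ly49- replicate 2, Klre1 alone passed, and the other 6 called with all arrays had adjusted p of 0.052 (1426182_a_at and the shared probe set), 0.053 (Klrk1), 0.055 (1425005_at), 0.064 (Klrc2) and 0.083 (Klrc3). Without Ly49+ replicate 1, 1426182_a_at was lost (0.058), and without Ly49+ replicate 2 it (0.063), Klrc3 (0.065) and Klrk1 (0.055) were lost. The log2 fold changes themselves moved little in these fits, by the most for the shared probe set, from 1.62 to 2.05. Calls over all probe sets were also fewer in each of these fits than with all arrays, as given in the last section.

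**Figure D3:**
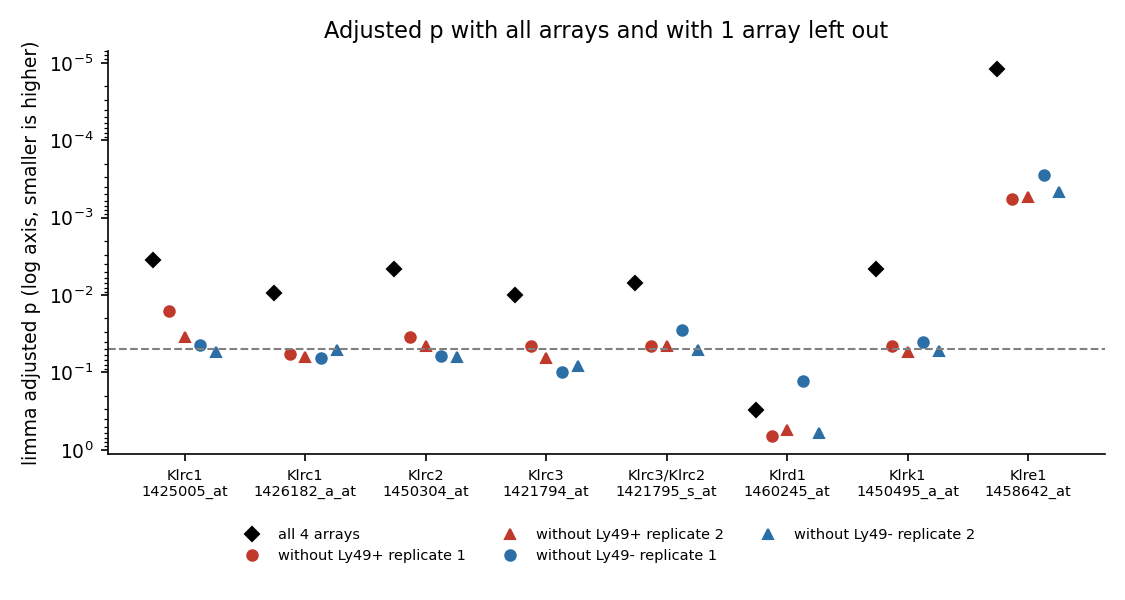
Adjusted p of each probe set (log axis, smaller values higher) with all 4 arrays (black) and with 1 array left out (red, a Ly49+ array; blue, a Ly49- array); the dashed line is 0.05. Klre1 lies above the line in every fit, Klrd1 below it in every fit, and the others cross it.

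Of the members' own adaptor genes, Tyrobp was called higher and Hcst was not, and the list also held Fcer1g, an adaptor of other NK receptors. Of the 5 on the list, 3 had a probe set of their own (Klri1 and Klri2 were not analysed here), 2 rose, none fell and 1 failed the test. Across 18193 genes, each at its brightest probe set, 0.973% were called higher and 0.698% lower. Hcst, which encodes DAP10, read 8849 and 9200 on the Ly49+ arrays and 9567 and 9812 on the Ly49- arrays, slightly lower without passing (log2 fold change -0.10 ± 0.04 SE, limma adjusted p = 0.35). Tyrobp, which encodes DAP12, read 3133 and 3372 against 2157 and 2089 and was 1.53-fold higher (adjusted p = 0.012). Fcer1g, the Fc receptor gamma chain that serves other NK receptors, read 2410 and 2590 against 1081 and 1053 and was 2.32-fold higher (adjusted p = 0.0019). For both genes the groups were well apart, and for Hcst they were apart in the other direction. Tyrobp missed the threshold without any 1 of the arrays (adjusted p of 0.056 and 0.099 with Ly49+ replicates 1 and 2 removed in turn, 0.086 and 0.10 with Ly49- replicates 1 and 2 removed) and without a trend of the spread (0.056). Fcer1g passed in all 4 such fits.

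Markers of other cells moved on the same arrays. Across the 18193 genes, each at its brightest probe set, 0.973% were called higher and 0.698% lower. Of 10 myeloid markers, all measured, 7 were higher and none was lower, with a median log2 fold change of 0.60. An unadjusted limma p under 0.05 was reached by 9 of the 10, against 13.3% over all probe sets. Lyz2, which encodes lysozyme, was 2.19-fold and Vcam1, a gene of spleen macrophages, 1.66-fold higher. The summed intensity of the 10 was 19213 and 21309 on the Ly49+ arrays against 12773 and 12888 on the Ly49- arrays, and Itgam alone was below the low reading on all 4. Tyrobp and Fcer1g are expressed by myeloid cells too. Of 9 NK-cell markers, 8 had a probe set of their own, 4 of them were higher (Tyrobp, Fcer1g, Cd244a and Klrb1a) and none was lower. Without passing, Itga2 (log2 fold change 0.64, limma adjusted p = 0.075), Clnk (0.55, 0.10) and Fcgr3 (0.33, 0.12) differed upward. An unadjusted limma p under 0.05 was reached by 7 of the 8, against 13.3% over all probe sets. The summed intensities of the 8 were 7625 and 8139 against 4670 and 4649, and most of each sum came from Tyrobp and Fcer1g. Klrb1a was below the low reading on both Ly49- arrays (57.9 and 47.0). The probe set shared by Klrb1b and Klrb1c, the latter encoding NK1.1, was 2.35-fold higher (adjusted p = 0.0042). It missed the threshold without Ly49- replicate 1 (0.052) or 2 (0.058). Ncr1, a defining NK-cell receptor gene, was at a low reading on all 4 arrays (34.9 to 44.8). The probe set shared by the gamma-delta T-cell receptor segments Trgv4 and Trgv2 was 2.48-fold higher (7418 ± 422 against 2988 ± 278, adjusted p = 0.0018), while Sox13, a factor of gamma-delta T cells, differed by -0.17 on the log2 scale (adjusted p = 0.56). Of 6 measured B-cell markers, Cd22 was called higher and none lower. Without passing, Ms4a1 (log2 fold change 0.44) and Cd79a (0.28) differed upward, and Cd79b (-0.28, limma adjusted p = 0.096) and Ighm (-0.09) downward. Pax5 was below the low reading on all 4 arrays. Of 5 dendritic-cell markers Xcr1 was called higher and none lower. The NKT-cell factor Zbtb16 did not pass (adjusted p = 0.62). Both Zbtb16 (73.9 to 106) and Sox13 (80.6 to 102) were read near the low reading, where a difference is hard to see. With 1 array removed, the myeloid markers called higher were 4 and 1 (Ly49+ replicates 1 and 2 removed) and 0 and 0 (Ly49- replicates 1 and 2 removed), the NK-cell markers 2, 1, 1 and 1 in the same order, Cd22 passed in all 4 fits and Xcr1 in none. Without a trend of the spread, Lyz2 was the 1 myeloid marker called higher, the other 6 having adjusted p of 0.050 (Adgre1, not under the threshold) to 0.095 (Cd68), and 3 NK-cell markers were. In each of these fits fewer probe sets were called over the whole array too. The part of these other cells in the readings of the 6 receptor genes was not tested.

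Of 11 listed MHC class Ib and NKG2D ligand genes, 3 had a probe set of their own, and 0 of these were called in either direction. Of these 3, 1 (H2-Q10) had an unadjusted p under 0.05, against 13.3% over all probe sets. Raet1a, Raet1b, Raet1c, H60a and H60b were not analysed here. H2-T23, which encodes Qa-1, was read only by probe sets shared with a pseudogene, H2-T-ps. The brighter, 1449556_at, read 9773 and 10129 on the Ly49+ arrays and 11210 and 11705 on the Ly49- arrays. It was lower on both Ly49+ arrays without passing (log2 fold change -0.20 ± 0.04 SE, limma adjusted p = 0.089, unadjusted 0.0018). The other, 1419658_at, gave -0.22 (limma adjusted p = 0.33, unadjusted 0.035), also without overlap of the groups. Of the NKG2D ligands, H60c (log2 fold change 0.09, adjusted p = 0.82) and Ulbp1 (-0.20, 0.64) had overlapping groups, and the probe set shared by Raet1e and Raet1d was read at 67.1 to 77.2, near the low reading (-0.03, 0.93). H2-Q10, a secreted MHC class Ib gene that is not Qa-1, gave -0.32 (0.18).

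Of 15 signalling genes below activating receptors, 14 were measured, of which 1 rose, none fell and 13 failed the test, with a median log2 fold change of 0.01. An unadjusted p under 0.05 was reached by 6 of the 14 (13.3% over all probe sets): Lat2, Syk, Vav2 (0.32, adjusted p = 0.13), Vav3 (0.32, 0.18), Pik3r1 (0.14, 0.24) and Lat (-0.09, 0.34). Lat2, a membrane adaptor of B, myeloid and NK cells, was the 1 that rose (217 and 235 against 135 and 130, 1.63-fold, adjusted p = 0.040), and it missed the threshold without any 1 of the arrays (0.14, 0.22, 0.17 and 0.24 without Ly49+ replicates 1 and 2 and Ly49- replicates 1 and 2) and with a pseudocount of 64 (0.052). Syk, a kinase recruited by DAP12, read 299 and 321 against 183 and 212 without passing (log2 fold change 0.61, adjusted p = 0.080). Zap70, the related kinase of T cells, gave -0.04 (0.80). None of the 3 genes below inhibitory receptors passed (1 had an unadjusted p under 0.05, against 13.3% over all probe sets). Ptpn6, which encodes the phosphatase SHP-1 that binds NKG2A, gave 0.12 (0.25), Inpp5d, encoding the lipid phosphatase SHIP-1, -0.06 (0.62) and Ptpn11, encoding SHP-2, -0.06 (0.63).

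No transcription factor studied for NK receptor expression passed, of 10 measured among 12 listed (median log2 fold change 0.08; 2 had an unadjusted p under 0.05, against 13.3% over all probe sets). These 2 were Eomes, a T-box factor of NK and memory CD8 T cells (0.14, adjusted p = 0.24), and Tox, needed for NK-cell development (0.22, 0.36). Runx3, of the Runt-domain family whose core is marked in the printed windows, gave 0.07 (0.66). Of 8 cytokine receptor genes, 7 were measured and none passed (0 also at an unadjusted p under 0.05), with a median of -0.04. The 2 with the smallest p were Il21r (-0.12, 0.46) and Tgfbr2 (-0.06, 0.58). These counts, like those of the lists above, are of the brightest probe set of each gene. The 13.3% set beside them is over all probe sets, dim ones included. Dimmer probe sets with an unadjusted limma p under 0.05 included Il2rb 1417546_at (0.21, adjusted p = 0.13) and Id2 1422537_a_at (0.25, 0.15). Ets1 also had them (1422027_a_at, 0.14, 0.23, and 1422028_a_at, 0.12, 0.29). Tgfbr1 had them in both directions (1420893_a_at, -0.42, 0.24, and 1420894_at, 0.51, 0.35).

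**Figure D4:**
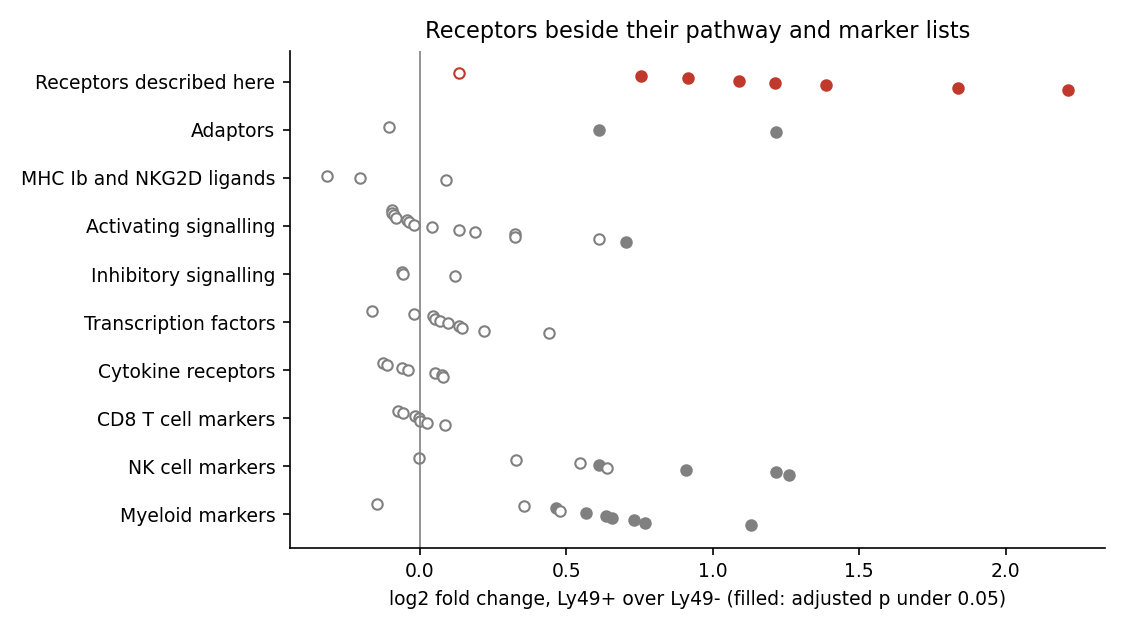
Log2 fold change of the 8 receptor probe sets (red) and of the brightest probe set of each gene in the pathway and marker lists (grey), filled where the adjusted p was under 0.05. The receptors span 0.14 to 2.21. The medians of the activating signalling, transcription factor and CD8 lists are 0.01, 0.08 and -0.00. To the right of these stand Lat2 (0.70, filled) and the open points Syk (0.61) and Nfil3 (0.44). The Nfil3 groups overlapped (limma adjusted p = 0.41). The medians of the NK-cell and myeloid marker lists are 0.63 and 0.60.

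Along chromosome 6, the members that rose were interrupted by Klrd1, which lies between Klre1 and Klrk1. The neighbour on the Klre1 side, Gabarapl1, an autophagy gene of another family, was 1.60-fold higher (849 and 788 against 493 and 520; log2 fold change 0.68 ± 0.09 SE, limma adjusted p = 0.025). It missed the threshold without any 1 of the arrays (0.16, 0.12, 0.15 and 0.14 in the order used for Lat2). The next measured genes on that side, Tmem52b, Olr1, Clec7a and Clec1a, did not pass (adjusted p of 0.47, 1.0, 0.42 and 0.90), and neither did Klra17, the next measured gene beyond Klrc1 (0.46). These neighbours were taken by position, up to 8 annotated genes on either side.

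**Figure D5:**
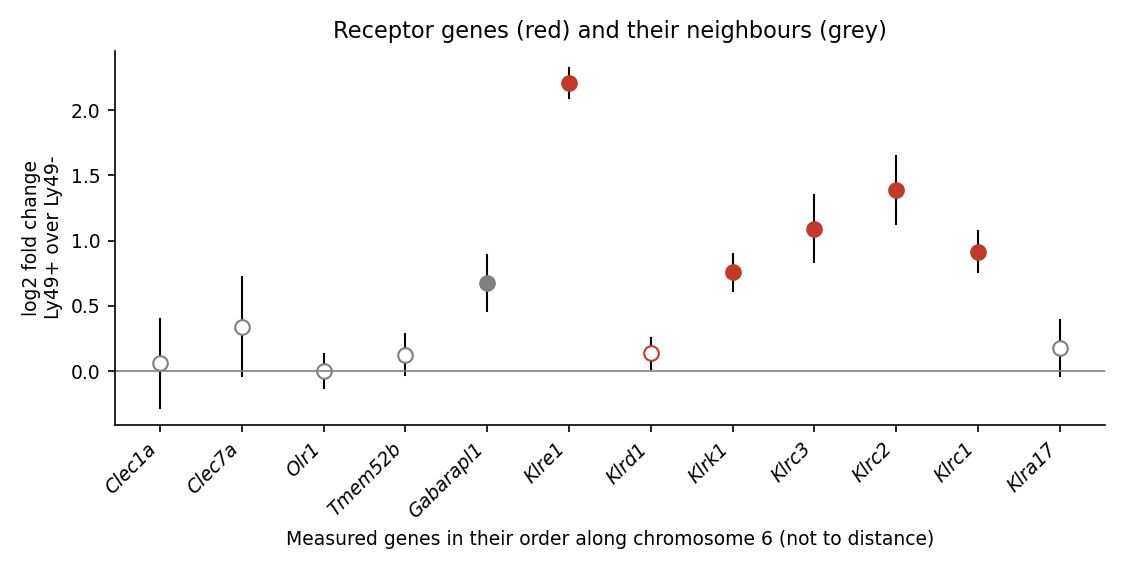
Log2 fold change, Ly49+ over Ly49-, of the measured genes around the cluster in their order along chromosome 6 (not to distance), with 95% intervals; red points are the receptor genes, grey their neighbours, filled where the adjusted p was under 0.05. Klre1 at 2.21 is next to Klrd1 at 0.14, and Gabarapl1 at 0.68 is the only filled grey point.

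Patterns most like each member were ranked over the 4 arrays by the Euclidean distance between centred log2 values, among 23990 probe sets of other named genes whose mean was above the low reading. Over 4 arrays in 2 groups this mostly finds genes with a like fold change. Klre1 was nearest to Klra7, a Ly49 receptor gene, through its probe set 1451664_x_at (distance 0.05), then to a pair of probe sets of Ikzf2, which encodes Helios (0.22 and 0.31). Klrc2 was nearest to Marchf1, a ubiquitin ligase of antigen-presenting cells (0.13), Cd244a (0.14) and Mpzl1 (0.17). Klrc1 was nearest to the chemokine gene Cxcl9 (0.03), Dnase1l3 (0.05) and Rhobtb1 (0.05), and Klrc3 to Cd93 (0.05), Cadm1 (0.06) and Trpm2 (0.07). Klrk1 was nearest to Cers6, a ceramide synthase (0.04), the MHC class II gene H2-Eb1 (0.04) and Gm36723 (0.05). Klrd1 was nearest to Bmp2k, Rpap1 and Gng2 (0.01 each), all with changes of 0.13 to 0.14.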

How the data were processed

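The deposited table gives a linear intensity for each probe set, judged so from the values, whose array quartiles lay within 0.04 on the log2 scale. How the authors normalized it is not given in the sources; scanner files were not used here. Biotin-labelled cRNA was prepared by the Affymetrix protocol, per the labels' protocols. Groups and replicate numbers came from the sample titles. Symbols came from the platform annotation of 2016. Of 45101 probe sets, 64 were controls, 34945 had 1 symbol, 932 several and 9160 were not listed; RefSeq changed 0 symbols. The Klre1 probe set is tied to its gene by the platform annotation alone.

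Values were tested as log2(intensity + 16) without further normalization, in R 4.3.3 with limma 3.58.1 (trend of the spread; group alone in the design; degrees of freedom 2 residual and 5.05 prior), each probe set on its own, with Benjamini-Hochberg adjustment over 45037 probe sets. On that scale fold changes of dim genes come out too small. The number of arrays limits the precision. Every probe set of the members was named; of the pathway lists, all partners, adaptors and ligands, and otherwise the genes that passed or the 2 with the smallest p, with further genes named after their values were seen. Lists were summarised by the brightest probe set of each gene. Windows were aligned with Biopython 1.88. The members, lists and tests were chosen with earlier results of these data known.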

Additional observations from a re-analysis of the deposited data

How the results depend on the processing

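Under the 11 alternatives that kept all 4 arrays, every member probe set that could be tested kept its direction and its side of the threshold. Without a trend of the spread, 165 probe sets in all were higher and 68 lower, against 345 and 193. With the replicate block 856 were higher and 559 lower, and the 7 member calls stood. The titles number the replicates alike in both groups, and same-numbered samples' deviations correlated at 0.236, but nothing in the labels says that a number is shared. Testing the brightest probe set of each gene gave 371 lower. With 1 array left out, taking the lone array of a group to vary as the other group does, 26 to 85 probe sets were higher, 5 to 19 lower, and 1 to 6 of the 8 members higher. Log2 fold changes then ran from 0.84 to 0.99 (Klrc1 1425005_at), 1.09 to 1.34 (1426182_a_at), 1.34 to 1.43 (Klrc2), 1.02 to 1.17 (Klrc3), 1.62 to 2.05 (shared probe set), 0.72 to 0.79 (Klrk1), 2.18 to 2.25 (Klre1) and 0.06 to 0.21 (Klrd1). Why these counts moved was not tested. Dim probe sets (Klrc3, and Klrc2 in Ly49- cells) are limited by signal over background.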
